A study of Homo sapiens with 4 samples.

Results

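The region described here is 1 Mb of chromosome 17, positions 57000000 to 58000000 on hg19, which holds CLTC, PTRH2, VMP1 and TUBD1. Its members are the PPARG peaks of 2 deposited lists with a midpoint in that stretch, 6 of 1419 in NCI-H1993 and 12 of 2225 in NCI-H2347, or 18 of 3644 in all. The stretch was chosen by the number of peaks it held, high in NCI-H2347 and also filled in NCI-H1993, so its peak counts and the share of overlapping peaks are given as a description, with no test. NCI-H1993 and NCI-H2347 are human lung adenocarcinoma cell lines. Each had been made transgenic for a bacterial artificial chromosome encoding PPARG with the LAP tag, which carries EGFP, and was grown in RPMI-1640 with 5% FBS. Chromatin immunoprecipitation followed by sequencing (ChIP-seq) used a goat antibody against EGFP, so it reports the tagged receptor and not any untagged PPARG of the cells. The 4 samples were 1 ChIP and 1 input library per line, the inputs were not analysed here, and no untagged line or replicate entered the comparison. The labels name no ligand, and the letters PIO in the names of both lists are not explained in them. They also do not say whether each transgenic line was a clone or a pool.

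PPARG is a nuclear receptor that binds DNA as a heterodimer with a retinoid X receptor, at paired copies of the half-site AGGTCA, and it is best known for driving fat cell differentiation and lipid handling. CLTC encodes the clathrin heavy chain, the main building block of coated vesicles. PTRH2 encodes a mitochondrial peptidyl-tRNA hydrolase, VMP1 a membrane protein of the endoplasmic reticulum needed to form autophagosomes, and TUBD1 delta-tubulin, a tubulin of centrioles. MIR21, the gene of miR-21, lies inside VMP1 near its end, and its product is a microRNA that is abundant in many carcinomas. RefSeq (GRCh38.p14) lists the genes in the order DHX40, CLTC, PTRH2, VMP1, MIR21, TUBD1, RPS6KB1, counting protein-coding and miRNA genes. CLTC and VMP1 are on the plus strand and PTRH2 and TUBD1 on the minus strand. PTRH2 and VMP1 therefore start back to back, and VMP1 and TUBD1 end facing each other.

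The genes were placed by spans given in kb on hg19. CLTC spanned 57697 to 57775 kb, PTRH2 57774 to 57785 kb, VMP1 57784 to 57918 kb and TUBD1 57936 to 57971 kb. A span edge is known to 1 kb, and exons and introns on this build were not used here. Sequence of the peaks themselves was not used here either.

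2 sequences are shown for orientation, both from RefSeq on GRCh38.p14 and neither read from a peak. The first is the stretch of 223 bases between the starts of PTRH2 and VMP1 (GRCh38.p14 chr17:59707431-59707653, plus strand). It is shown because both genes start at its edges and no peak of either list lay near those starts. GC made up 58.7% of its bases, and CG occurred 15 times.
between PTRH2 and VMP1: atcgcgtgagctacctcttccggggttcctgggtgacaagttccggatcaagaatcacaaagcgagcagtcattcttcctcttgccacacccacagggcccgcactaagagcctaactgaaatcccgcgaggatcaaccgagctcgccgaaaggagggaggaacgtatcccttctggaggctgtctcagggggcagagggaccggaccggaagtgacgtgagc
The second is the mature product of MIR21, with its seed (bases 2 to 8) in capitals. It is shown because 3 of the 4 NCI-H2347 peaks from VMP1 onwards with no overlapping NCI-H1993 peak gathered around the VMP1 end. MIR21 lies near that end, but its position relative to the peaks was not read. The level of miR-21 was not measured.
hsa-miR-21-5p: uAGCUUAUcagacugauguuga

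The peaks in and beside the 4 genes all lay in 1 stretch that began inside VMP1 and ended short of TUBD1. It held 8 of the 12 NCI-H2347 peaks, from 57833187 to 57931427, or 98.2 kb, and 4 of the 6 NCI-H1993 peaks, from 57833393 to 57931475, or 98.1 kb. Inside the VMP1 span NCI-H2347 had 5 peaks and NCI-H1993 had 2. In the 18 kb between the ends of VMP1 and TUBD1 NCI-H2347 had 3 and NCI-H1993 had 2. Neither list had a peak in CLTC, PTRH2 or TUBD1 (0 in each), and none lay between the far side of TUBD1 and the end of the window. Every NCI-H1993 peak of the stretch, 4 of 4, overlapped an NCI-H2347 peak by at least 1 bp, against 34.2% of the whole list. The window was chosen for being filled in both lists, so this was not tested.

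**Figure D1:**
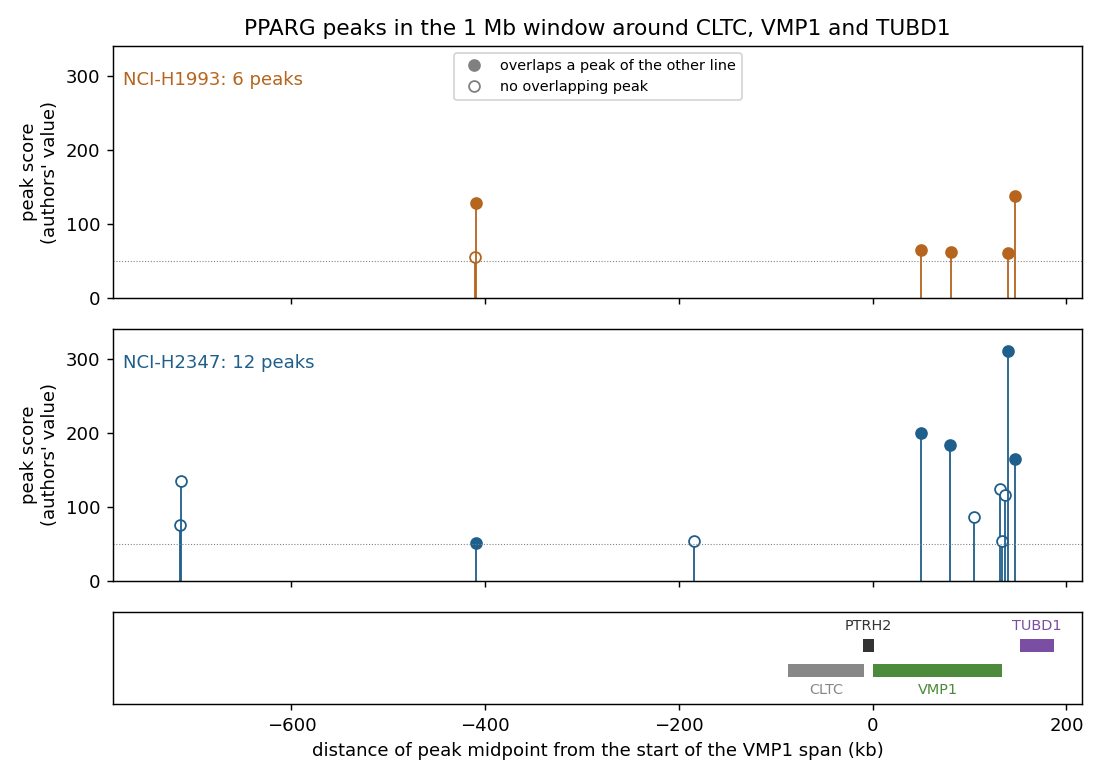
Score of each PPARG peak (vertical axis, the authors' value, not comparable between the panels) against the distance of its midpoint from the start of the VMP1 span (horizontal axis, kb), with the 4 gene spans below. Filled circles overlap a peak of the other line, open circles do not, and the dotted line is at a score of 50; 8 NCI-H2347 and 4 NCI-H1993 peaks stand from VMP1 to TUBD1.

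None of the 4 gene starts had a peak close by. The nearest peak to the VMP1 start was the same site in both lines, 49.9 kb downstream in NCI-H1993 and 49.8 kb downstream in NCI-H2347. The PTRH2 start lies on the far side of the bases between the genes, so the same peak was the nearest to it; the spans, known to 1 kb, do not resolve the difference between these starts. The TUBD1 start was 40.0 kb from a peak in NCI-H1993 and 40.1 kb in NCI-H2347, on the side of the gene body and beyond its end. From the CLTC start the nearest peak was 137 kb away in NCI-H1993 and 97.9 kb away in NCI-H2347. The promoter windows of RefSeq, 250 bases before to 50 after each start, held 0 matches to AGGTCA in all 4 genes on both strands. Over all 35116 promoters 13.8% held at least 1, so 0 among these 4 is not unusual. The PTRH2 and VMP1 windows also share the bases between their starts. The windows of the 4 genes held 0 matches to a direct repeat of AGGTCA with 1 base between (0.0228% of promoters). Nor did they match the AP-1 motif TGACTCA (4.95%) or the forkhead motif TGTTTAC (3.42%). These are exact letters only, and their absence says nothing of binding.

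5 sites of the window were shared, meaning that peaks of the lists overlapped by at least 1 bp. They made up 5 of 6 NCI-H1993 peaks, against 34.2% of that whole list, and 5 of 12 NCI-H2347 peaks, against 21.7% of that list. The first shared VMP1 site covered 57833393 to 57834341 in the NCI-H1993 list, scoring 65.4, and 57833187 to 57834371 in the NCI-H2347 list, scoring 200.2. The score is the authors' value for a peak and is read here against its own list. The exception is a level of 100 applied to both lists, which keeps unlike shares of them. At this first site 42.3% of NCI-H1993 and 91.9% of NCI-H2347 peaks scored lower. At the second shared VMP1 site the peaks ran from 57864096 to 57864955 and from 57863374 to 57865002. Their scores were 62.2 in NCI-H1993 (36.8% of the list lower) and 184 in NCI-H2347 (90.3% lower). Both VMP1 sites thus stood below the middle of one list and within the top 10% of the other. The lists differ in length, each came from 1 library, and read depth is unknown. These standings therefore cannot tell whether binding differed between the lines.

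The other shared sites near the genes lay past the VMP1 end. One was centred 5.28 kb past the VMP1 span in NCI-H1993, at 57922935 to 57923618, and 5.61 kb past it in NCI-H2347, at 57922829 to 57924389. Its NCI-H2347 score of 310 was the highest of the window and number 55 of the list, with 97.5% of peaks lower. In NCI-H1993 the same site scored 61.0, with 34.0% of peaks lower. The next site lay between the genes, 4.98 kb from the TUBD1 span in NCI-H1993, at 57930557 to 57931475, and 5.08 kb from it in NCI-H2347, at 57930420 to 57931427. It was the highest-scoring NCI-H1993 peak of the window, with a score of 138 (88.7% of the list lower), and scored 164 in NCI-H2347 (86.5% lower). Of the shared sites it alone reached a score of 100 in both lists. That level was reached by 23.8% of all NCI-H1993 peaks and 33.0% of all NCI-H2347 peaks. The site with the highest NCI-H2347 score was thus the lowest of the 5 shared in NCI-H1993, but by a narrow margin. It scored 61.0 in NCI-H1993, where the shared VMP1 sites scored 62.2 and 65.4.

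The last shared site stood far from the 4 genes, 322 kb before CLTC. Its NCI-H1993 peak, 57374260 to 57375177, scored 128 (86.8% of the list lower), while the NCI-H2347 peak, 57374332 to 57375044, scored 51.0 (3.73% lower), close to the lowest score of that list, 50.05. Here the standing in the lists was the other way round from the VMP1 sites. A further NCI-H1993 peak, 57373364 to 57374232 with a score of 55.8, ended with a gap of 27 bp to the NCI-H1993 peak of this site. The further peak was the 1 NCI-H1993 member without an overlapping NCI-H2347 peak, and it missed one by 99 bp.

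7 NCI-H2347 peaks of the window had no overlapping NCI-H1993 peak. Each called peak is counted on its own, though some of them lay within 1 kb of each other. In VMP1, the first was at 57888293 to 57889186, with a score of 86.5 (58.5% of the list lower), 23.3 kb from the nearest NCI-H1993 peak. The other 3 near the genes sat in a row at the VMP1 end. They ran from 57914643 to 57916507 with a score of 124, from 57916797 to 57918668 with a score of 54.4 and from 57919561 to 57921421 with a score of 116. The first of these was centred 2.43 kb before the end of the span and the last 2.49 kb past it. The middle one was centred 0.268 kb before the end, less than the 1 kb to which the end is known, so its place inside VMP1 is not certain. The nearest NCI-H1993 peak was the shared one past the VMP1 end, 6.43, 4.27 and 1.51 kb away in that order. MIR21 lies at this end of VMP1, but its position relative to these peaks was not read, since its coordinates here were on another build.

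**Figure D2:**
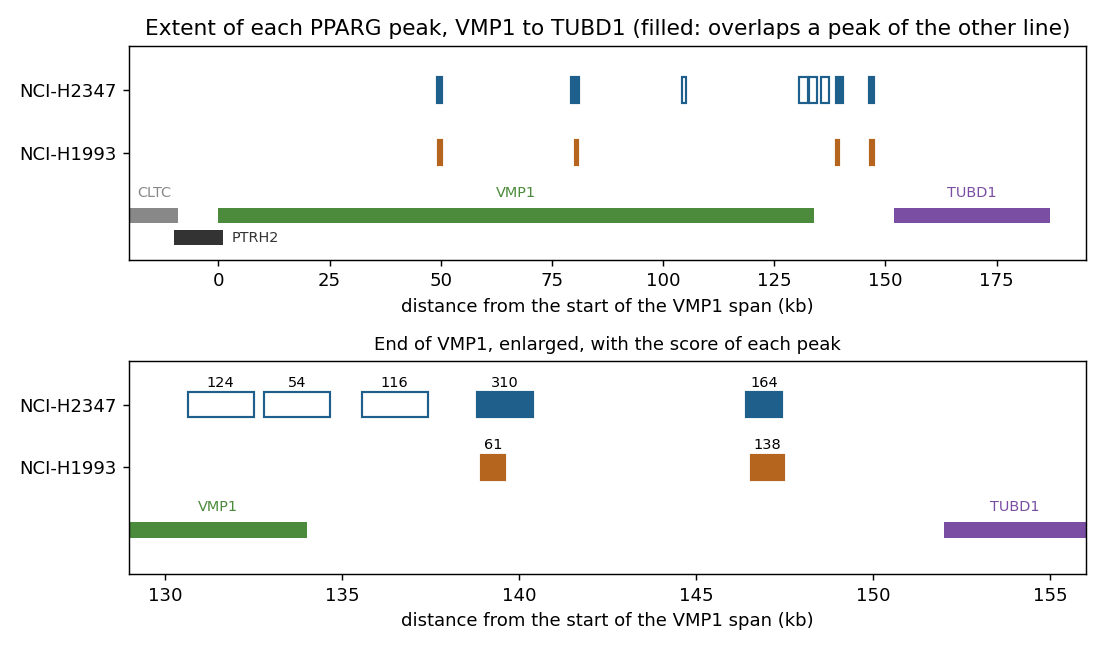
Extent of each peak from VMP1 to TUBD1 (top) and around the VMP1 end (bottom), as distance from the start of the VMP1 span in kb, with 1 row per cell line and the gene spans below. Filled boxes overlap a peak of the other line, and the numbers are the authors' scores; the NCI-H2347 peaks with scores of 124, 54.4 and 116 have no NCI-H1993 peak beneath them.

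Together with the highest-scoring peak, these 3 made 4 NCI-H2347 peaks in 9.75 kb, of which 7.16 kb was covered by peaks. Gaps of 289, 892 and 1407 bp separated them. The run of 4 includes the peak with a score of 54.4, close to the lowest of the NCI-H2347 list, 50.05. Elsewhere in that list 1 other peak began a run of 4 within 10 kb, and 4 was the most found. Over 100 kb the stretch from VMP1 to TUBD1 held 8 NCI-H2347 peaks, reached from 1 other peak elsewhere and exceeded nowhere. The 4 NCI-H1993 peaks of the stretch were fewer than the most found elsewhere in that list, which was 5 within 100 kb. Since the window was picked for its number of peaks, these counts describe that choice and were not tested.

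The remaining unshared NCI-H2347 peaks lay before CLTC. A pair at 57068821 to 57069478 and 57069729 to 57070697, 250 bp apart, scored 75.9 and 136, and a single peak at 57598743 to 57599507 scored 54.2. The NCI-H1993 peaks nearest to them were 304, 303 and 224 kb away. They were not assigned to genes, since no span of this build covered them.

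Peaks around VMP1 were wide in NCI-H2347. Peak width was not used to choose the region, though a wide peak overlaps another more easily. The 3 unshared peaks at the VMP1 end were 1865, 1872 and 1861 bp wide, numbers 23, 22 and 24 of 2225, and the highest-scoring one was 1561 bp wide, where the list had a median of 832 bp. The second shared VMP1 site was 1629 bp wide and the first 1185 bp. Of the 12 NCI-H2347 peaks 6 fell in the widest 10% of their list, a limit set after the widths had been seen and passed by 10.1% of all peaks; all 6 were among the 8 from VMP1 to TUBD1. In NCI-H1993 0 of 6 did, against 10.1% of the list, and the widths ran from 684 to 949 bp, with a list median of 731 bp. The middle peak of the row, with 99.0% of the list narrower but 14.2% scoring lower, was wide without a high score. Read depth is unknown from such lists, and its part in these widths was not tested.

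**Figure D3:**
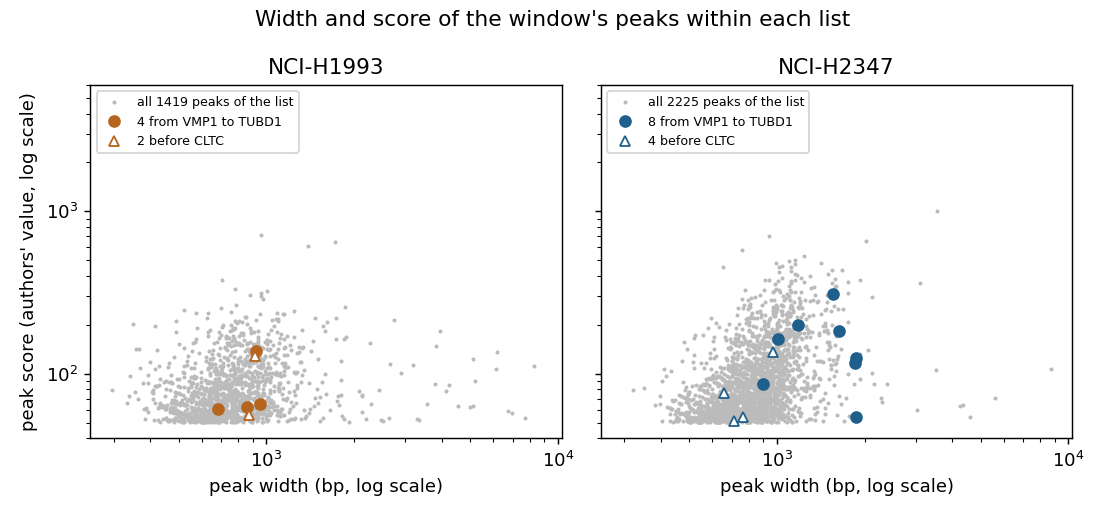
Score (authors' value) against width in bp for all peaks of each list (grey) and for the members, on log axes, with 1 panel per cell line. Filled circles are the 4 NCI-H1993 and 8 NCI-H2347 peaks from VMP1 to TUBD1 and triangles those before CLTC; 6 of the NCI-H2347 circles are at or above 1151 bp, where the widest 10% of that list begin.

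The shared peaks differed in width between the lines more at some sites than at others. The NCI-H2347 peak was 2.28 times as wide as its NCI-H1993 counterpart at the site past the VMP1 end and 1.89 times at the second VMP1 site. The ratio was 1.25 at the first VMP1 site, 1.10 at the site before TUBD1 and 0.777 at the site before CLTC. The NCI-H2347 peak was the wider one in 4 of 5 pairs, close to the 68.3% of all 486 overlapping pairs. Midpoints were 30.5 bp apart before CLTC, 88.0 bp at the first VMP1 site and 92.5 bp before TUBD1, but 338 bp at the second VMP1 site and 333 bp past the VMP1 end. The median over all pairs was 76.3 bp. At those last sites the whole NCI-H1993 peak lay within the wider NCI-H2347 peak and filled 52.8% and 43.8% of it.

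Of the 12 NCI-H2347 members 7 scored 100 or more, as did 33.0% of the list, and of the 6 NCI-H1993 members 2 did, against 23.8%. In NCI-H2347 the shared members had scores of 51.0 to 310 with a median of 184, and the unshared ones of 54.2 to 136 with a median of 86.5, so the sets overlapped. Over the whole list the medians were 116 for shared and 72.1 for unshared peaks. In NCI-H1993 the shared members ran from 61.0 to 138 with a median of 65.4, below the 86.1 of all shared peaks in that list. With 1 library per line, none of these differences has a replicate spread to be read against.

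The count of peaks was lower on both sides of the window. The 2 windows of 1 Mb before it held 3 and 2 NCI-H2347 peaks, and the 2 after it 2 and 4. In NCI-H1993 these held 0, 1, 1 and 1. The nearest peaks outside were at its upper edge, a shared site 42.4 kb beyond it. The NCI-H1993 peak there (58042201 to 58042775) scored 66.9, and the NCI-H2347 peak (58041865 to 58042997) scored 189. At the lower edge the nearest peaks outside were unshared, 809 kb away in NCI-H1993 (score 59.4) and 230 kb in NCI-H2347 (score 53.1). Of the 1129 windows with an NCI-H2347 peak none held more than 12, and of 892 with an NCI-H1993 peak 1 held more than 6. This was the 1 window with at least 6 peaks in both lists, which describes its choice.

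**Figure D4:**
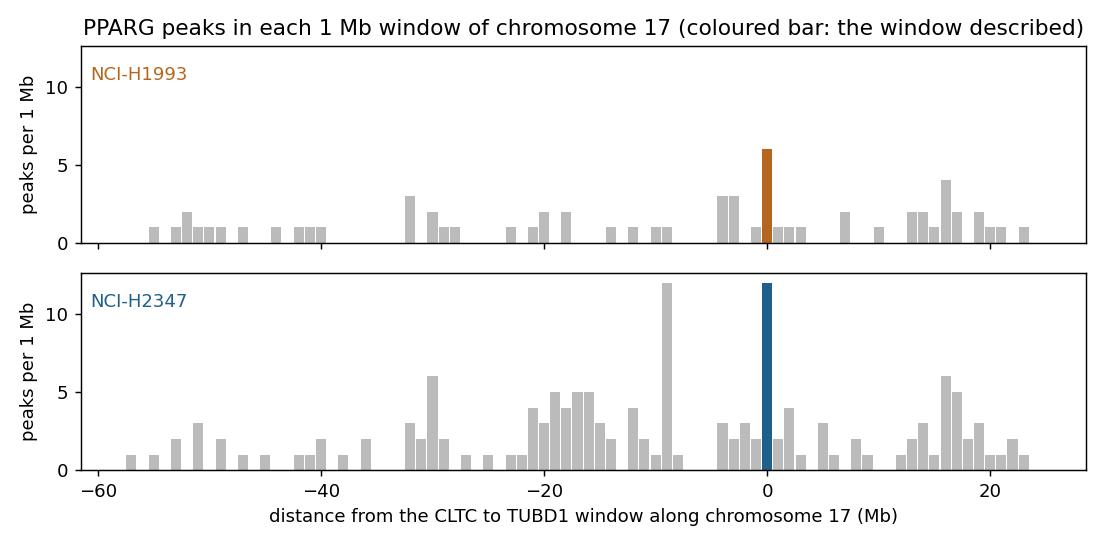
Number of peaks in each 1 Mb window of chromosome 17 (vertical axis) against the distance from the window of CLTC to TUBD1 (horizontal axis, Mb), for both lists, with that window coloured. It holds 6 NCI-H1993 and 12 NCI-H2347 peaks, and the other NCI-H2347 bar of 12 stands above a single NCI-H1993 peak.

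The other chromosome 17 window with 12 NCI-H2347 peaks, from 48000001 to 49000000, differed from it in the other line. It held 1 NCI-H1993 peak. Of its 12 NCI-H2347 peaks 1 was shared, against 5 of 12 in the whole window described here and 21.7% of the list. The single NCI-H1993 peak there was itself shared. The number of NCI-H1993 peaks thus limited the shared count in advance, and the contrast says nothing more about sharing. Its NCI-H2347 scores had a median of 93.9, with 5 of 12 at 100 or more, against a median of 120 and 7 of 12 here. Both windows were picked for their counts, and the difference was not tested. A peak missing from a list did not pass the authors' threshold there, and how far the signal fell below it was not read.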

How the data were processed

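The deposited data were 1 list of PPARG peaks per cell line, with chromosome, start, end, name and score in 5 columns and no header. MACS 1.4.2 and hg19 are named in the submitters' processing notes; how reads were aligned and filtered, the calling threshold and the role of the input are details not given in the sources used here. Each score is the authors' value for 1 peak, deposited without a stated scale. The lowest values were 50.03 and 50.05. Each list came from 1 library, so there is no replicate error, and read depth is unknown.

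Starts were converted to 1-based positions. A peak belonged to the window or to a gene span by its midpoint. A minimum of 1 bp of overlap made peaks shared; the overlap code was tested on simulated lists. Ranks and percentiles of score and width were taken within a list. No test was run, since the window was chosen on its counts. All members are described; the region and the measures were chosen with earlier results of these data known. Motif search in the peaks needed hg19 sequence, which was not used here; the search of RefSeq promoters for AGGTCA, its direct repeat, TGACTCA and TGTTTAC was added in its place. Python 3.11.15, numpy 2.4.6, pandas 2.3.3 and matplotlib 3.10.9 were used.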

Additional observations from a re-analysis of the deposited data

How the results depend on the processing

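Of 24 values recomputed under other settings, 14 stayed within 1.5 times of the reported count and 10 did not. With midpoints within 250 bp as the definition, 3 sites were shared in each list, because the second VMP1 site and the site past the VMP1 end have midpoints further apart. Keeping peaks that scored 100 or more left 2 NCI-H1993 and 7 NCI-H2347 peaks, and 1 site was shared, the one before TUBD1. Moved down by 500 kb, the window held 2 NCI-H1993 and 4 NCI-H2347 peaks; it then lacked VMP1 and took in 1 NCI-H2347 peak from outside. Widening each gene span by 10 kb raised the peaks in the spans in NCI-H1993 from 2 to 4 and in NCI-H2347 from 5 to 8, as the peaks between VMP1 and TUBD1 then counted. Joining peaks within 1 kb of each other, chosen after seeing the data, gave 5 and 9 peaks. In NCI-H2347 the joined peaks were the unshared pair before CLTC and the row of 3 unshared peaks at the VMP1 end. The highest-scoring NCI-H2347 peak stayed apart from that row, by 1407 bp. The unshared NCI-H2347 peaks thus stood for fewer separate sites. The motif search in peaks was not run. No paired analysis was possible because each line had a single ChIP library. With depth unknown, a missing peak cannot be read as an unbound site.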
